A study of Mus musculus with 6 samples.

Results

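Cyp51 and Fdps, enzymes of cholesterol synthesis, were followed across 6 arrays of NIT-1 cells with and without cadmium. They are 2 of the 18972 genes measured under a single name. They were chosen by name after an earlier pass over the same arrays in which their signals were lower with cadmium. Their difference between the groups is therefore given as a description, without a test, and attention is on the spread between the control arrays. NIT-1 is a line of pancreatic beta cells from a non-obese diabetic mouse that carried a viral T antigen under an insulin promoter. All cells grew in medium with 10% fetal bovine serum and antibiotics. After 24 h in plates, 3 cultures received 4 µmol/L of cadmium sulphate (CdSO4) for a further 24 h and 3 received culture medium alone. The cultures are labelled as biological replicates without naming passage or day, so errors measure the spread between these cultures, and precision is limited by 3 arrays a group.

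Cells make cholesterol from acetyl-CoA by way of mevalonate, farnesyl diphosphate, squalene and lanosterol. Fdps, farnesyl diphosphate synthase, makes the branch point from which sterols, prenyl anchors of proteins, dolichol and ubiquinone are drawn. Cyp51, lanosterol demethylase, is a cytochrome P450 that carries out the first step after lanosterol. The genes of this pathway are switched on together by SREBP-2, a transcription factor that Scap carries from the endoplasmic reticulum when sterols are scarce and that Insig proteins hold back when sterols are plentiful. SREBP acts at sterol regulatory elements, usually with the factors NF-Y and Sp1 bound close by.

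The promoter of Cyp51 is shown because it carries a match to the core of such an element. The RefSeq table for GRCm38.p6 held a promoter window for Cyp51, which runs from 250 bases before to 50 bases after the start of the gene at chr5:4104648-4104947 on the minus strand. Fdps is named only. Capitals mark, from left to right, the Sp1 letters GGGCGG, the sterol regulatory letters TCACCNCA and the NF-Y letters CCAAT.
Cyp51 promoter: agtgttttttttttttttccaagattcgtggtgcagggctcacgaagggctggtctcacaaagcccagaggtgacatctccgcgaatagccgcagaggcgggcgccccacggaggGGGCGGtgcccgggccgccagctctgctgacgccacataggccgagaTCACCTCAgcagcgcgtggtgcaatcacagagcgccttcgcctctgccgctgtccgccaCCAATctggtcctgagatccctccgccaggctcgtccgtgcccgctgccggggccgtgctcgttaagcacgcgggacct

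The sterol regulatory match began 88 bases before the start of the gene, the Sp1 match 135 bases before it and the CCAAT match 29 bases before it. These motifs were searched on both strands, and no capitals overlap. The letters TCACCNCA, written with the known Cyp51 element in mind, occurred in 4.42% of 32851 promoter windows of this length. Counted by gene, 5.08% of 27025 genes with a window held them. Of 11 measured sterol synthesis genes with a window, 2 held them, Cyp51 and Hsd17b7, a reductase of a later step. The matched letters are the same in both, as the 30 bases around each match show, with the match in capitals. The first lies at chr5:4104767-4104796 and the second at chr1:169969304-169969333, both on the minus strand.
Cyp51 site: ataggccgagaTCACCTCAgcagcgcgtgg
Hsd17b7 site: ctcggcctatcTCACCTCAcccggtctggg

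CCAAT was present in at least 1 window of 11 of the 11 sterol synthesis genes, against 41.1% of all 27025 genes with a window. GGGCGG was present in 10 of 11, all but Pmvk, against 38.2%. The letters TGACG, found in cyclic AMP response elements, were present in 5 of 11, among them Cyp51, against 23.0%. The letters TGCNCNC, a looser form of the metal response element core TGCRCNC (R is A or G), were present in 4 of 11, against 53.6%. Cyp51 was among them, but its match, TGCCCGC, has C in place of R and so lacks that core. Genes with several windows count once, so more windows give more chances of a match. The 27025 genes include genes not measured here, and a match of letters is a description and not a bound site.

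Values are log2 signals as deposited, with the base of the logarithm inferred from their range, and differences are cadmium minus control on that scale. Across all genes 2313 passed limma at an adjusted p under 0.05, 1227 higher and 1086 lower, with a median difference of 0.04. With each array centred on its median the calls were 887 higher and 1449 lower, so the share of higher genes among the calls moved from 53.0% to 38.0%. The second principal component, with 15.6% of the variance, set control replicate 3 and cadmium replicate 1 at -12.4 and -11.6 and the remaining arrays at 5.56 to 6.29. The median of positive control probes was 6.10 on control replicate 3 and between 5.87 and 5.99 on the other arrays. An approximate background bound was taken at 6.18, below which 95% of negative control probes lay on an average array. Of 14 listed beta cell markers 5 were measured, and 0 had a control mean above that bound, which 2266 of all 18972 genes reached. Ins2, an insulin gene, was at 5.27 ± 0.10 (SD, n = 3). Control means of Nkx6-1, Pdx1, Slc2a2 and Iapp were 4.84, 4.25, 3.76 and 1.90. The labelled cell type was thus not borne out by these markers, and why they were low was not tested. None of 2 other islet and 4 exocrine and duct markers had a control mean above the bound. Of 3 stromal, endothelial and immune markers 1 did, the collagen gene Col3a1, which fell from a mean of 9.07 to 8.06 (limma adjusted p = 0.0018). The others of that list, Cdh5, at 3.82 and 4.02, and Ptprc, at 2.12 and 2.18, were below the bound and higher on average with cadmium, without passing (limma adjusted p = 0.067 and 0.457). The summed level of the 3, in which Col3a1 is by far the brightest, was 8.99 to 9.25 in control and 7.99 to 8.31 in cadmium arrays. The part of these markers in the values below was not tested. The summed level of the beta cell markers was 6.66 to 6.76 in control and 6.76 to 6.81 in cadmium arrays.

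Cyp51 was lower on every cadmium array than on any control array, but its controls were far from alike. Its signal was 6.68, 6.70 and 5.93 on control replicates 1, 2 and 3, and 5.21, 5.52 and 5.53 on cadmium replicates 1, 2 and 3. Control replicates 1 and 2 lay within 0.02 of each other, and control replicate 3 lay 0.76 below their mean. The lowest control was 0.40 above the highest cadmium array. The group means were 6.44 ± 0.44 and 5.42 ± 0.18 (SD, n = 3), a difference of -1.02 with a standard error of 0.21 in the fit across all genes. Control replicate 3 and the 3 cadmium arrays were below the bound, so the ratio of signals is given only as at least 1.21-fold lower with cadmium. Such lower bounds set the brighter mean against the bound averaged over the dimmer group's own arrays, 6.17 for cadmium and 6.19 for control. In bulk RNA, fewer cells that express a gene and less RNA per cell cannot be told apart.

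Fdps showed the same order of the groups and a still wider gap among controls. Its signal was 7.19, 7.19 and 6.36 on control replicates 1, 2 and 3, and 6.14, 6.04 and 6.01 on the cadmium replicates. Control replicate 3 lay 0.83 below the mean of the other controls and 0.22 above the highest cadmium array. The group means were 6.91 ± 0.48 and 6.07 ± 0.07, a difference of -0.85 with a standard error of 0.21. Its cadmium arrays agreed closely, with a control SD 6.88 times the cadmium SD, whereas the ratio for Cyp51 was 2.38. All control arrays and no cadmium array of Fdps lay above the bound, which gives a level at least 1.68-fold lower with cadmium.

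**Figure D1:**
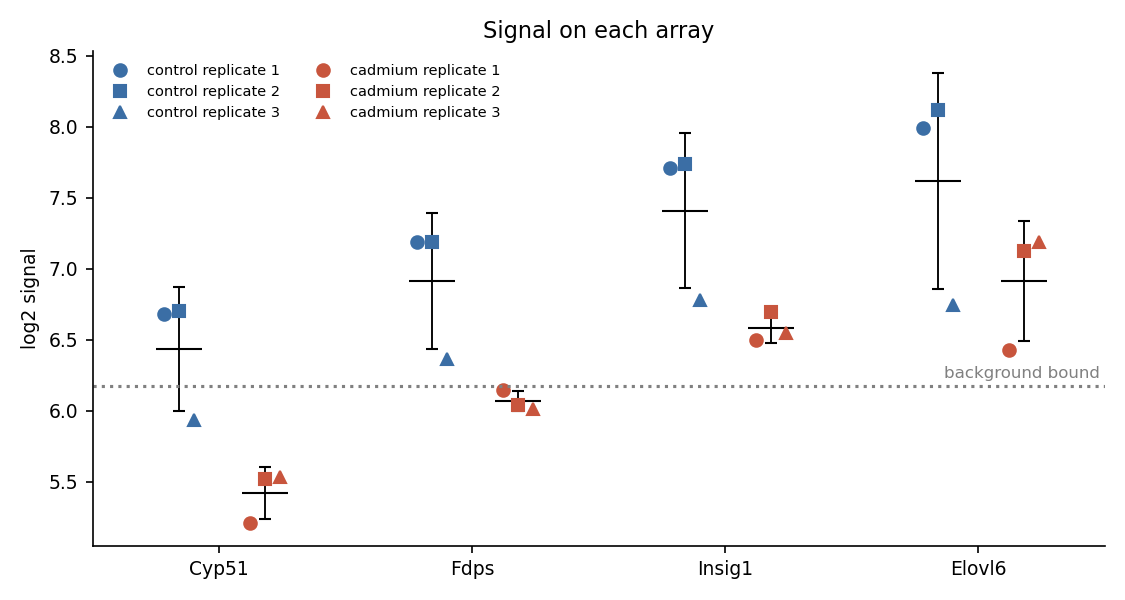
Log2 signal (vertical axis) of Cyp51, Fdps, Insig1 and Elovl6 on each of the 6 arrays. Points are arrays, horizontal marks and bars are the mean and SD of 3 arrays, and the dotted line is the background bound of 6.18. Control replicate 3 lies well below the other controls for each gene, and for Elovl6 it lies below the cadmium mean.

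Measured from control replicates 1 and 2, control replicate 3 lay 59.6% of the way to the cadmium mean for Cyp51 and 73.8% of the way for Fdps. The choice of control arrays therefore moved the size of the difference. Its sign could not change with arrays left out, since every cadmium array lay below every control array. Without control replicate 3 the difference was -1.27 for Cyp51 and -1.13 for Fdps. Without control replicate 1 it was -0.90 and -0.71, and without control replicate 2 it was -0.89 and -0.71. Leaving out a cadmium array gave -0.91 to -1.08 for Cyp51 and -0.82 to -0.89 for Fdps. The standard error of the fit was 0.11 for Cyp51 and 0.06 for Fdps without control replicate 3, and 0.21 to 0.26 with all arrays or with any other array left out.

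**Figure D2:**
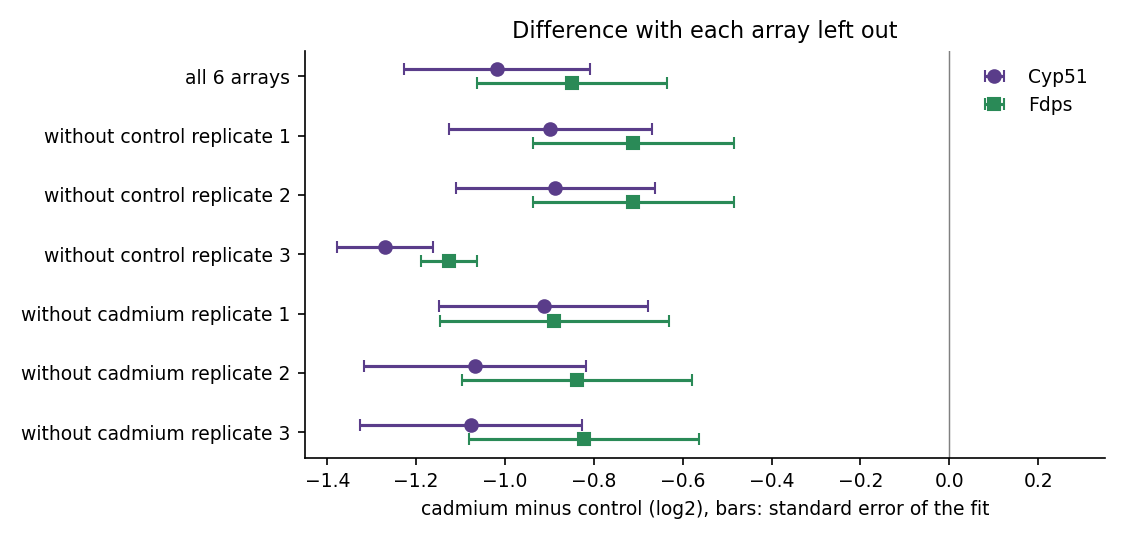
Difference cadmium minus control on the log2 scale (horizontal axis) for Cyp51 and Fdps with all 6 arrays and with each array left out in turn. Bars are standard errors of the fit across all genes. All differences lie below 0, as they must where the groups do not overlap. Those without control replicate 3, at -1.27 and -1.13, are the farthest from 0 with the shortest bars.

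The spread between controls was wide against that of other genes. The median SD of the control arrays was 0.076 over all genes and 0.104 over the 2266 genes with a control mean at or above the bound. Fdps, at 0.48, was among the 17 genes with the widest controls of all, and Cyp51, at 0.44, among the 36. Among the 2266 brighter genes they were within the top 10 and the top 23. The cadmium SD of Fdps, at 0.07, was below the median of 0.080 over all genes. For 12 of the 36 genes control replicate 3 was the lowest control, for 22 it was the highest, and for 2 it lay between the others. Cyp51, Fdps, Insig1 and Elovl6 were among the 12, as were genes outside the lists used here, such as Col12a1, Stom and Mir5103.

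**Figure D3:**
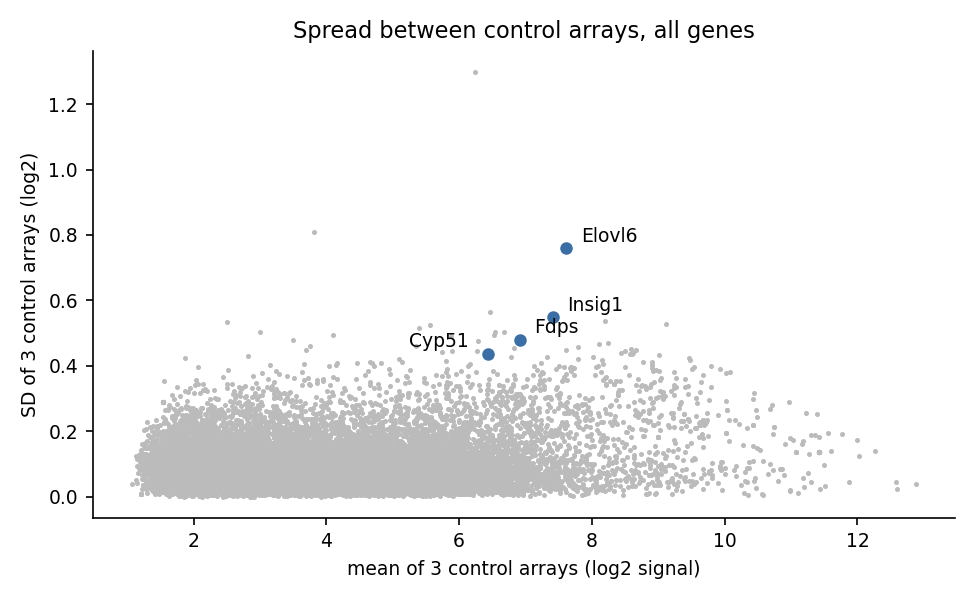
Mean log2 signal of the 3 control arrays (horizontal axis) against their SD (vertical axis) for all genes, in grey. Cyp51, Fdps, Insig1 and Elovl6, in blue, have SDs from 0.44 to 0.76, and the median over all genes is 0.076.

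The other enzymes of the pathway were read from the fit across all genes. Of 19 further genes in the lists 10 were measured under a single name, 2 of which fell and 0 rose, where 5.72% of all genes were called lower. The median difference of the 10 was -0.16, against 0.04 over all genes, and 9 of them were below 0. Their groups did not overlap in 4 cases, all lower, where 13.0% of all genes had no overlap in that direction. The others were not analysed here, and none of the measured genes acts before mevalonate. The counts rest on lists chosen with results of these arrays known.

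Upstream of Fdps, none of the 3 measured enzymes passed, where 12.2% of all genes did, and 0 had an unadjusted p under 0.05 in limma. Mvk, which phosphorylates mevalonate, had a mean of 5.11 ± 0.04 without and 5.07 with cadmium. Pmvk, the next kinase, was at 5.44 and 5.45. Mvd, the decarboxylase that yields isopentenyl diphosphate, was at 6.20, 6.17 and 5.86 on the controls and at 5.92, 5.95 and 5.89 with cadmium. For Mvd control replicate 3 thus lay below all cadmium arrays, and the other controls above them. All these means were below the bound.

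Downstream of lanosterol, 2 of 7 measured genes besides Cyp51 fell, where 5.72% of all genes were called lower. Lbr, an inner nuclear membrane protein that also reduces the product of Cyp51, fell from 6.35 ± 0.14 to 5.99, by 0.36 ± 0.08 (SE; limma adjusted p = 0.031). Nsdhl, a dehydrogenase that helps to remove the methyl groups at carbon 4, fell from 4.65 ± 0.14 to 4.27, by 0.39 ± 0.09 (SE; limma adjusted p = 0.030), below the bound in both groups. With each array centred on its median 3 of the 10 genes fell, Msmo1 among them, where 7.64% of all genes were called lower. The calls of Lbr and Nsdhl were lost when either of control replicates 1 and 2 or either of cadmium replicates 2 and 3 was left out, and that of Lbr without cadmium replicate 1 as well. Lbr also missed the threshold after quantile normalization, at an adjusted p of 0.061 in limma, and Nsdhl with the replicate number as a block, at 0.082. The highest adjusted p of Lbr over the alternatives was 0.109.

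Msmo1, the methyl oxidase acting next to Nsdhl, and Dhcr7, which makes cholesterol in the last step of one branch, had non-overlapping groups and did not pass. Msmo1 was at 3.75, 3.80 and 3.42 on the controls and at 3.23 to 3.31 with cadmium (limma adjusted p = 0.057). Dhcr7 was at 5.68, 5.90 and 5.37 on the controls and at 5.01 to 5.27 with cadmium (limma adjusted p = 0.070). In both, control replicate 3 was again the lowest control. Hsd17b7, Ebp, an isomerase, and Sc5d, a desaturase, had differences of -0.12, -0.17 and -0.12 and overlapping groups.

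Control replicate 3 was the lowest control for 9 of these 10 genes, all but Mvk, as it was for Cyp51 and Fdps, and for 37.0% of all genes. Its median distance from the mean of the other controls was -0.22 over the 10 genes and -0.002 over all genes. Cadmium replicate 1 was the lowest cadmium array for 5 of the 10 genes and for Cyp51, against 36.1% of all genes, and the highest for Fdps. Without control replicate 3 the count of lower genes among the 10 was 5, with Mvd, Msmo1 and Dhcr7 joining Lbr and Nsdhl, at adjusted p of 0.029, 0.0054 and 0.020 in limma. In that fit 5.37% of all genes were called lower. Since control replicate 3 was the lowest control for 9 of the 10, leaving it out widens their differences by itself. The count was 1 without cadmium replicate 1. It was 0 without control replicate 1 or 2 or cadmium replicate 2 or 3, fits that called 1142 to 1191 of all genes in either direction.

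**Figure D4:**
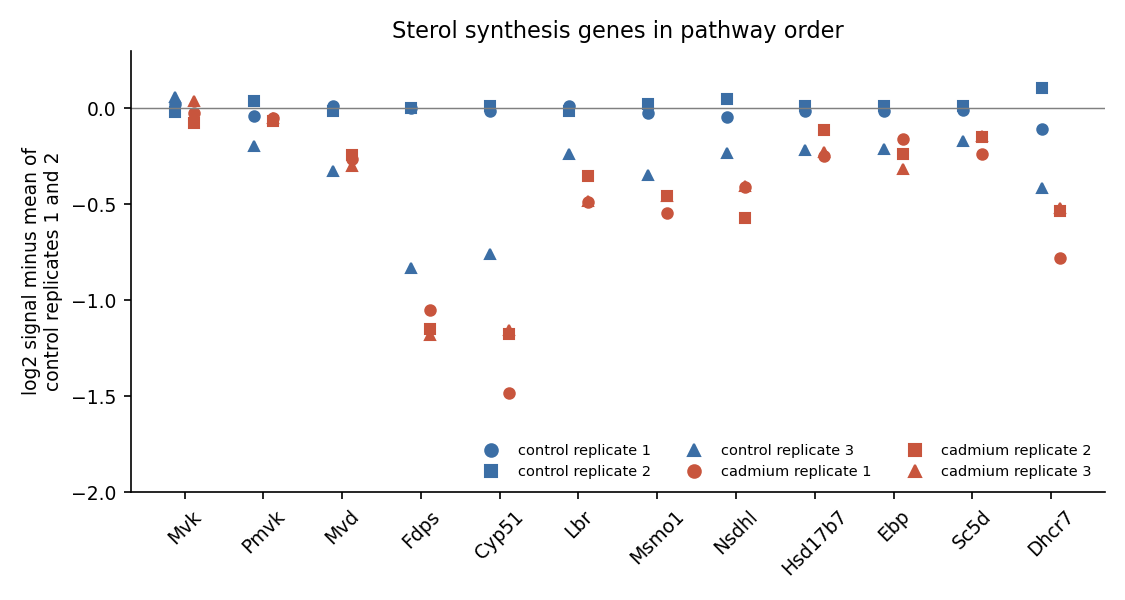
Log2 signal of each array minus the mean of control replicates 1 and 2 (vertical axis) for the 12 measured sterol synthesis genes in the order of the pathway. Points are arrays. Control replicate 3, the blue triangle, lies below 0 for all of them except Mvk, and its largest distances are -0.83 for Fdps and -0.76 for Cyp51.

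Of 14 genes in the list of the SREBP pathway 6 were measured, 1 of which fell, where 5.72% of all genes were called lower. Control replicate 3 was the lowest control for 4 of the 6 and the highest for Mbtps1 and Vcp. Insig1, which holds SREBP in the endoplasmic reticulum and is itself an SREBP target, was at 7.71, 7.74 and 6.78 on the control arrays and between 6.496 and 6.70 with cadmium. Control replicate 3 lay 0.95 below the other controls and only 0.08 above the highest cadmium array. The difference of Insig1 was -0.83 ± 0.24 (SE) and did not pass (limma adjusted p = 0.072). Without control replicate 3 it was -1.14 and did pass (limma adjusted p = 0.00081). Leaving out the lowest control by itself widens the difference and narrows the spread, so that call is a description. Scap, the escort of SREBP, was at 7.10, 7.07 and 6.75 on the controls and 6.68, 6.82 and 6.73 with cadmium, with overlapping groups (limma adjusted p = 0.175). Insig2 was at 5.53, 5.65 and 5.37 on the controls and at 5.14 to 5.31 with cadmium (limma adjusted p = 0.062). Srebf1 and Srebf2, which encode SREBP, were not analysed here.

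Mbtps1, the protease that makes the first cut in SREBP, fell, and with another pattern among controls. Its signal was 6.42, 6.47 and 6.65 on control replicates 1, 2 and 3 and 6.01, 5.81 and 5.71 on the cadmium arrays, with control replicate 3 the highest. The difference was -0.67 ± 0.10 (SE; limma adjusted p = 0.0060), and the call was kept under all 15 alternatives run, with adjusted p of up to 0.031. Erlin2, a membrane protein of the endoplasmic reticulum that takes part in protein degradation there, had control replicate 3 lowest at 6.33 against 6.72 and 6.81, and overlapped the cadmium arrays at 6.13 to 6.41. Vcp, an ATPase that extracts proteins from the membrane, was at 8.47 and 8.39 (limma adjusted p = 0.388).

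In the list of uptake and transport 1 of 3 measured genes fell, where 5.72% of all genes were called lower. Gramd1a, which moves cholesterol from the plasma membrane to the endoplasmic reticulum, was at 6.80, 6.84 and 6.86 on the controls and at 6.41, 6.27 and 6.12 with cadmium. Its controls agreed closely, and its difference was -0.57 ± 0.08 (SE), a 1.48-fold lower level (limma adjusted p = 0.0051). Scarb1, a lipoprotein receptor, was at 4.88 and 4.86, and Gramd1b at 4.99 and 4.87, neither of which passed.

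Of 8 measured genes of efflux, storage and oxysterols 2 fell and 0 rose, where 5.72% of all genes were called lower. Both were below the bound in both groups. Abcg4, a sterol exporter, fell from 5.66 to 5.40 (limma adjusted p = 0.034), and Nceh1, a cholesterol ester hydrolase, from 4.02 to 3.82 (limma adjusted p = 0.047). The call of Nceh1 was lost with any 1 array left out and that of Abcg4 with any 1 array except control replicate 3, at adjusted p of up to 0.151 and 0.115. Abca1, the main cholesterol exporter, was at 6.65, 6.56 and 6.10 on the controls and at 5.87, 6.20 and 6.17 with cadmium, so that control replicate 3 lay within the range of the cadmium arrays (limma adjusted p = 0.186). Nr1h3, an oxysterol-activated receptor that induces Abca1, had a difference of 0.15 and did not pass (limma adjusted p = 0.146), nor did Apoe, at 0.11 (limma adjusted p = 0.187).

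Among 11 measured users of farnesyl diphosphate 1 fell, where 5.72% of all genes were called lower. Zmpste24, the protease that trims farnesylated prelamin A, was at 5.84, 5.97 and 5.76 on the controls and at 5.34, 5.24 and 5.28 with cadmium, below the bound in both groups. Its difference was -0.57 ± 0.07 (SE; limma adjusted p = 0.0030), and control replicate 3 stayed 0.47 above the cadmium mean. Dolk, dolichol kinase, was at 4.38 and 4.13 (limma adjusted p = 0.117), Nus1, a subunit of the enzyme that extends dolichol, at 5.21 and 5.06 (limma adjusted p = 0.223), and Chm, an escort of Rab proteins for prenylation, at 5.45 and 5.55 (limma adjusted p = 0.264). Ggps1, which extends farnesyl to geranylgeranyl diphosphate, was not analysed here.

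Of the electron donors and membrane partners of P450 enzymes 4 were measured and 0 passed, where 12.2% of all genes did. Among the 4, 1 had an unadjusted p under 0.05 in limma. That was Pgrmc2, a haem-binding partner, at 6.59 ± 0.14 and 6.29 (limma adjusted p = 0.070). Pgrmc1, which binds Cyp51, was at 7.95, 7.85 and 7.47 on the controls and at 7.84 to 7.91 with cadmium, so that control replicate 3 alone was low. Cyb5b and Cyb5r1, of the cytochrome b5 system, had differences of 0.10 and -0.03. Por, the reductase that passes electrons to Cyp51, was not analysed here.

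Of 5 measured SREBP targets of fatty acid synthesis 1 rose and 0 fell, where 6.47% of all genes were called higher. Elovl6, a fatty acid elongase, varied more among controls than Cyp51 and Fdps did, at 7.99, 8.12 and 6.74 on control replicates 1, 2 and 3. With cadmium it was at 6.43, 7.12 and 7.19, so the groups overlapped, and its difference of -0.70 ± 0.38 (SE) did not pass (limma adjusted p = 0.264). Without control replicate 3 it was -1.14 (limma adjusted p = 0.028), again with the lowest control left out. Acss2, acetyl-CoA synthetase, was at 5.17, 5.19 and 4.72 on the controls and at 4.64 to 4.78 with cadmium (limma adjusted p = 0.167). Me1, the malic enzyme that supplies NADPH, rose at least 1.23-fold, from 5.80 ± 0.13 to 6.48 (limma adjusted p = 0.0093). Elovl5 and Mid1ip1 had differences of 0.06 each (limma adjusted p = 0.834 and 0.786). Over the 6 lists around the pathway 6 of 37 measured genes passed, where 12.2% of all genes did. Without control replicate 3, 13 of the 37 passed, where 11.2% of all genes did. With any other single array left out 4 of the 37 passed, and 1142 to 2361 of all genes.

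**Figure D5:**
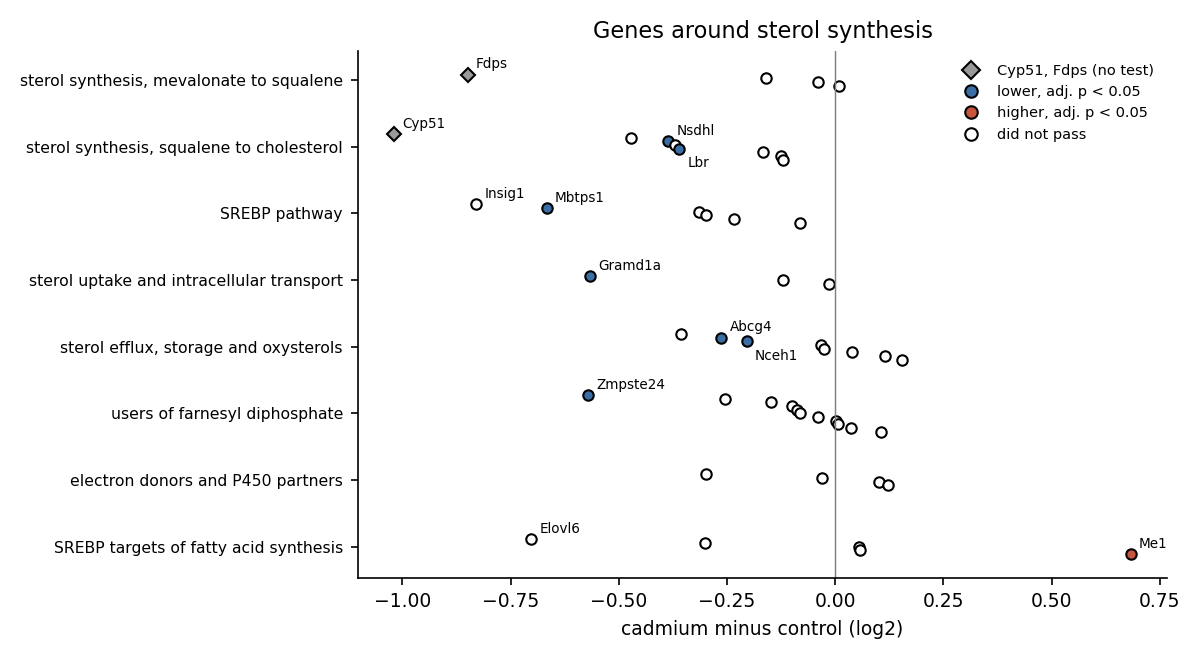
Difference cadmium minus control on the log2 scale (horizontal axis) for each measured gene, by list (vertical axis). Grey diamonds are Cyp51 and Fdps, shown without a test, filled circles are genes that passed limma at an adjusted p under 0.05, and open circles did not pass. Cyp51, at -1.02, is the lowest value and Me1, at 0.68, the highest.

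The genes most like Cyp51 and Fdps were ranked among 6448 protein-coding genes at or above the median level by the mean of their correlations with both, a description over 6 arrays that share the group difference. Cyp51 and Fdps correlated with each other at 0.96. The closest were Dnajc10, a disulfide reductase of the endoplasmic reticulum, Ndc1, a nuclear pore protein, Tbl2, Slc30a7, a zinc transporter of the early secretory pathway, Tecr, a reductase of long-chain fatty acid synthesis, and Ptdss2, a phosphatidylserine synthase. Their means were 0.984 to 0.986, and 145 genes reached 0.95. Each had control replicate 3 below the other controls, by 0.21 for Ptdss2 to 0.52 for Ndc1, and a difference from -0.22 to -0.66. The ranking itself selects for both features. Insig1 ranked 24 and Elovl6 653.

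With the group means removed, so that only the spread within groups was left, Cyp51 and Fdps correlated at 0.86. This value rests on the controls, where control replicate 3 lay 0.76 and 0.83 below the others. On cadmium replicates 1, 2 and 3 the genes ran in opposite order, at 5.21, 5.52 and 5.53 for Cyp51 and 6.14, 6.04 and 6.01 for Fdps. The ranking by correlation with both carries the same limit. The closest genes were then Anapc15, Dnajc10, Lrp6, a Wnt co-receptor, Rnf141, Phka2, a subunit of phosphorylase kinase, and Mfsd1, a lysosomal membrane protein, at 0.959 to 0.963. Insig1 ranked 18 and Elovl6 229. Dnajc10 was the gene present in both rankings. Anapc15 and Mfsd1 had differences of 0.18 and 0.24, above 0. Correlation ignores the size of the spread, and the control SD of Anapc15 was 0.078, near the median of 0.076 over all genes. For Mfsd1 the control SD was 0.40. Its control replicate 3 lay at -0.69 from the mean of the other controls, which by itself raises the difference.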

How the data were processed

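The authors deposited 1 value per probe and array for biotin-labelled total RNA. That the deposited values are on a log2 scale is inferred from their range. The sources used here give no background correction, normalization or software. The table held 39746 transcript clusters and 6732 control probes, and 0 columns lacked a sample. Clusters were named from the platform annotation, with symbols updated through RefSeq GRCm38.p6: 19205 had 1 gene, 940 several and 19601 none. The brightest probe stood for each of 18972 genes. Arrays were grouped and numbered by title. The test was a two-sided limma fit (version 3.58.1, R 4.3.3) of the group difference, its p-values adjusted over all genes by Benjamini-Hochberg and called under 0.05, after a check on simulated data. A ratio of signals is given only where a group mean reached the 95th percentile of negative control probes, and as a lower bound, against the dimmer group's own arrays, where 1 group did.

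Cyp51, Fdps and the lists were chosen with earlier results of these data known. Named genes were all measured sterol synthesis genes, list genes past the threshold or else up to 4 with the lowest adjusted p, the SREBP regulators, and the 6 most alike by each ranking. Alternatives covered scaling, level, probe choice, variance model, array weights, a replicate block, the threshold and left-out arrays. Figures were drawn with matplotlib 3.10.9.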

Additional observations from a re-analysis of the deposited data

How the results depend on the processing

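The differences of Cyp51 and Fdps were below 0 under all alternatives run, from -0.89 to -1.27 and from -0.71 to -1.17. With arrays left out this sign was fixed, since the groups do not overlap. Each difference moved by less than the pooled SD of the 2 groups, 0.34 for each gene. That SD is itself widened by control replicate 3, so it is a loose measure. Their control SDs ranged from 0.016 to 0.543 and from 0.00036 to 0.588 with 1 control left out, the lowest without control replicate 3. Of the 10 other sterol synthesis genes limma called 0 to 5 lower with 1 array left out, the 5 without control replicate 3. The count was 4 with array weights, 0 at an adjusted p of 0.01 and 6 without control replicate 3 and cadmium replicate 1, an alternative added after seeing the data. Where it was 0, 4 genes had an unadjusted p under 0.05. The count over the surrounding lists was 4 to 13 with 1 array left out and 12 without both arrays. The calls over all genes, 2313 in all, were 1142 to 2361 with 1 array left out, 868 at an adjusted p of 0.01 and 2894 without both arrays. Same-numbered control and cadmium arrays deviated with correlations of -0.11, 0.06 and -0.11, and control replicate 3 correlated best with cadmium replicate 1, at 0.16. The numbers thus gave no sign of pairing, but such weak correlations cannot exclude cultures paired by day or passage. With the replicate block 1388 genes and 1 of the 10 sterol genes were called. Many levels lay below the background bound, where differences may be compressed.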

Other observations

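Control replicate 3 also stood apart in genes of the amino acid response, a set of 32 Atf4 targets and aminoacyl-tRNA synthetases chosen after the values were seen and therefore not tested on its position. Of the 19 measured, control replicate 3 was the highest control for 18, all but Atf3, against 36.7% of all genes, and its median distance from the other controls was 0.49. Fgf21, a stress-induced hormone, was at 5.40, 5.58 and 7.74 on control replicates 1, 2 and 3 and between 6.33 and 7.004 with cadmium, the widest gap of control replicate 3 above the other controls of any gene. The synthetase gene Gars was at 7.96, 7.98 and 8.78 on the controls and at 8.34 to 8.52 with cadmium. Slc6a9, a glycine transporter, was at 6.27, 6.24 and 7.12 on the controls and at 6.23 to 6.75 with cadmium. For Fgf21, Gars and Slc6a9 the highest of all 6 arrays was thus a control array. Over the 19 genes, 17 had a difference above 0 and 2 below it. The fit called 5 higher and 0 lower, where 6.47% of all genes were called higher.

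In the opposite direction, the elongase Elovl6 had the widest gap of control replicate 3 below the other controls of any gene, at -1.31. Control replicate 3 lay at least as far below the other controls as it did for Cyp51 in 11 genes, and as it did for Fdps in 7. Sars, another synthetase gene, was at 6.54, 6.58 and 7.35 on the controls and at 7.70 to 7.74 with cadmium, where it rose (limma adjusted p = 0.031). Whether the position of the sterol genes and that of the amino acid response genes on control replicate 3 have a common source was not tested.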
